A study of Cavia porcellus with 13 samples.

Results

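The genes described here belong to the system by which skin cells sense bacterial and viral products: the co-receptor CD14, its partner LY96, the adaptor MYD88 and the Toll-like receptors TLR1, TLR2, TLR3, TLR4, TLR7 and TLR8. They were chosen by symbol, without regard to case (the deposited table writes Tlr3), and 9 of the 10 symbols sought are among the 26855 genes of the table, each with 1 row. The remaining symbol, TLR5, was not analysed here. Guinea pig skin was sequenced in 13 libraries, all labelled as taken 4 days after tick bite, naive skin included, to ask how repeated tick exposure shapes the response at the bite. Library titles begin with CK1 or EF19-5, and with no explanation of these prefixes in the labels they were taken as 2 experiments. CK1 held 2 naive libraries from skin with no bite, 3 libraries of bitten skin from a 1st exposure (called first exposure) and 3 of bitten skin from animals labelled saliva immune. EF19-5 held 1 naive library, 2 libraries of bitten skin from animals labelled with 2 tick bites and 2 from animals labelled with 3. Strain, age and the way of saliva immunization are not named in the labels. Nor do they tie each library to an animal of its own, and the spread behind each p-value may therefore be technical.

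Toll-like receptors are membrane proteins of innate immunity that bind conserved parts of microbes. TLR4 binds bacterial lipopolysaccharide together with LY96 (also called MD-2), and CD14 hands the lipopolysaccharide over to that pair. TLR1 and TLR2 bind bacterial lipopeptides as a dimer at the cell surface, while TLR3, TLR7 and TLR8 bind RNA inside endosomes. MYD88 carries the signal of all of them except TLR3 to the kinases that switch on NF-kB. In skin, macrophages, dendritic cells and neutrophils carry most of these receptors, and keratinocytes carry some, TLR3 among them.

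Values are TPM, transcript abundances scaled by gene length and library total, so levels of different genes can be set side by side while the depth behind them is unknown. The 14979 genes that reached 1 TPM in 2 or more libraries were tested on log2(TPM + 1) with limma, and all 9 genes of interest were among them. TLR1, TLR7 and TLR8 reached 1 TPM in bitten libraries only, so the filter itself favoured a difference in that direction for these 3 genes. Skeletal muscle genes took 10.2% and 17.8% of the transcripts in the CK1 naive libraries, 2.56% to 11.1% in the CK1 bitten ones, 2.54% in the EF19-5 naive library and 0.701% to 1.62% in the EF19-5 bitten ones. Since these are bulk samples, fewer cells of a type and less RNA per cell cannot be told apart.

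The adaptor was the most abundant of the 9 transcripts in every library. Median levels over the 13 libraries ran from 50.7 TPM for MYD88 and 18.3 TPM for CD14 through 4.83 TPM for LY96 and 4.78 TPM for TLR4 to 2.39 TPM for TLR3 and 1.47 TPM for TLR2. The lowest medians were 0.955 TPM for TLR7, 0.895 TPM for TLR8 and 0.318 TPM for TLR1. CD14 came right after MYD88 in all libraries except 3 bites replicate 2, where LY96 stood above it. LY96 and TLR4 overlapped across nearly their whole ranges, 2.65 to 8.62 TPM and 1.82 to 8.72 TPM, so their order is not settled by these data. The same held for TLR7 (0.296 to 2.62 TPM) and TLR8 (0.128 to 5.99 TPM). TLR4 was the most abundant receptor, with 33.5% to 55.4% of the summed TPM of the 6 Toll-like receptors in each library. None of the 9 genes was listed at 0 in any library.

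**Figure D1:**
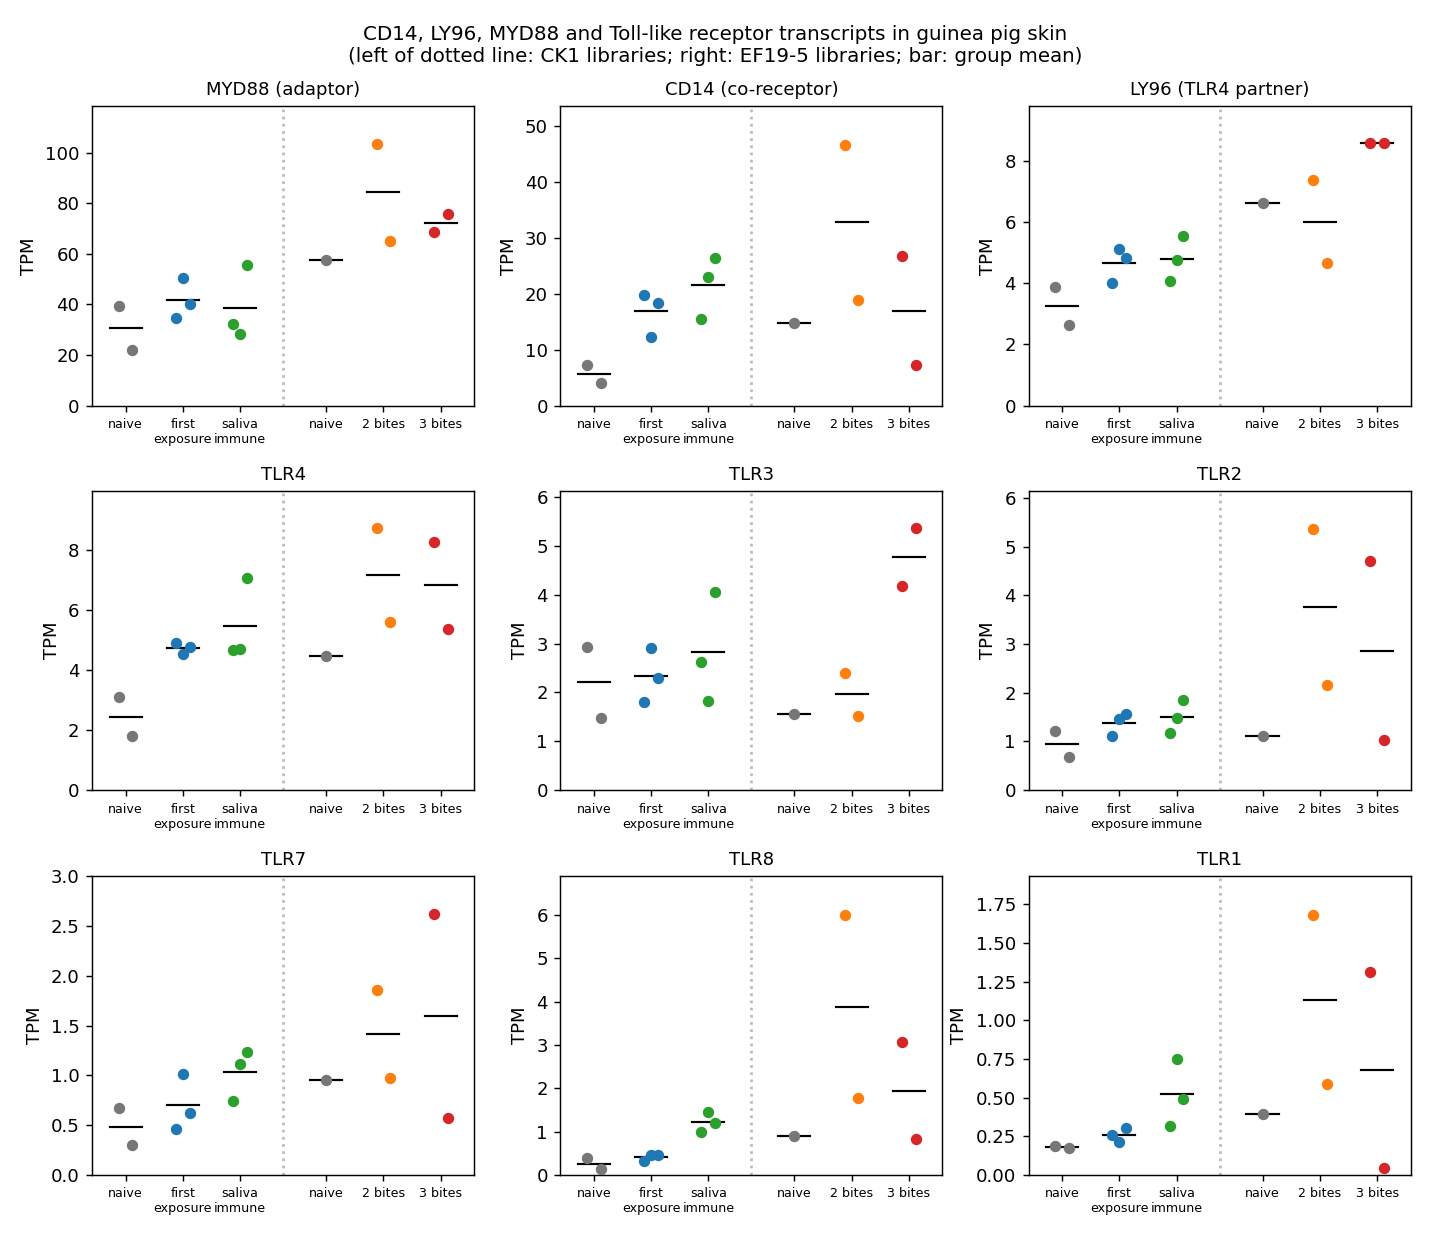
Level in TPM (vertical axes, linear, from 0) of each gene in each of the 13 libraries, by group (horizontal axes), with CK1 libraries left and EF19-5 libraries right of the dotted line. Points are libraries and bars are group means. TLR4 is higher in all 10 bitten libraries than in the naive libraries of the same experiment, and the 3 bites libraries are far apart for CD14, TLR1, TLR2, TLR7 and TLR8.

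CD14, the lipopolysaccharide co-receptor, was higher in bitten than in naive skin in 9 of 10 libraries, but no difference passed the test. In CK1 it stood at 7.32 and 3.95 TPM in the naive libraries, at 19.9, 12.3 and 18.3 TPM in first exposure skin and at 15.4, 23.0 and 26.3 TPM in saliva immune skin. The 6 bitten libraries of CK1 thus did not overlap with the 2 naive ones. First exposure skin lay above naive skin without overlap for 21.9% of all tested genes, and saliva immune skin did for 18.5%. In EF19-5 CD14 stood at 14.8 TPM in the naive library, at 46.6 and 19.0 TPM after 2 bites and at 26.7 and 7.23 TPM after 3 bites. Here the naive library lay within the range of the bitten ones, with 3 bites replicate 2 below it. Means were 16.8 ± 3.97 TPM (SD, n = 3) in first exposure and 21.6 ± 5.58 TPM (SD, n = 3) in saliva immune skin, against 5.64 ± 2.38 TPM (SD, n = 2) in CK1 naive skin.

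Pooled over both experiments, the log2 difference of CD14 between bitten and naive skin was 1.21 (SE 0.42, unadjusted p = 0.0118, adjusted p = 0.207 by limma). Among all tested genes, 0.968% had a larger difference. The difference was 1.45 (SE 0.52, adjusted p = 0.298) for first exposure and 1.78 (SE 0.52, adjusted p = 0.297) for saliva immune skin, both against the same 2 naive libraries. It was 0.96 (SE 0.70, adjusted p = 0.958) for 2 bites and -0.06 (SE 0.70, adjusted p = 1 by limma) for 3 bites skin against 1 shared naive library, whose spread was assumed to equal that of the remaining groups. Without 3 bites replicate 2, the pooled difference was 1.38 with an adjusted p of 0.0757, and the 3 bites difference was 0.81. Without naive replicate 2 the pooled difference was 0.86 (adjusted p = 0.963 by limma), and without 3 bites replicate 1 the 3 bites difference was -0.94. Within CK1 alone the pooled difference was 1.62 (adjusted p = 0.116), and within EF19-5 alone it was 0.45 (adjusted p = 1).

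TLR4, the receptor that CD14 serves, had the smallest p of the 9 genes. In CK1 it stood at 3.09 and 1.82 TPM in naive skin, at 4.92, 4.55 and 4.78 TPM in first exposure skin and at 4.67, 4.70 and 7.08 TPM in saliva immune skin. In EF19-5 it stood at 4.46 TPM in naive skin, at 8.72 and 5.6 TPM after 2 bites and at 8.28 and 5.38 TPM after 3 bites. All 10 bitten libraries therefore lay above all 3 naive ones, across experiments as well as within them, as they did for 1.03% of all tested genes. Within each experiment the bitten libraries lay above the naive ones for 3.09% of tested genes, and for TLR4 alone among the 9 genes. The log2 difference between bitten and naive skin was 0.73 (SE 0.18, unadjusted p = 0.00158, adjusted p = 0.128 by limma). It was 0.76 in first exposure, 0.91 in saliva immune, 0.55 in 2 bites and 0.49 in 3 bites skin, with limma adjusted p between 0.297 and 1. Without naive replicate 2, the library richest in muscle transcripts, the pooled difference was 0.55 (limma adjusted p = 0.851).

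LY96, the small protein that binds lipopolysaccharide together with TLR4, differed less. It stood at 3.87 and 2.65 TPM in CK1 naive skin, at 4.02, 5.12 and 4.83 TPM in first exposure and at 4.07, 4.77 and 5.55 TPM in saliva immune skin. Both bitten groups of CK1 thus lay above the naive libraries without overlap (21.9% of all genes for first exposure, 18.5% for saliva immune). In EF19-5 it stood at 6.63 TPM in naive skin, at 7.38 and 4.67 TPM after 2 bites and at 8.62 and 8.61 TPM after 3 bites. The 2 bites libraries enclosed the naive value, while both 3 bites libraries were above it (41.1% of all genes). The pooled log2 difference was 0.32 (SE 0.18, adjusted p = 0.4 by limma), 0.43 within CK1 and 0.09 within EF19-5.

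The lipopeptide receptors were at low levels in CK1 and reached their highest levels in 2 libraries of EF19-5. TLR2 stood at 1.22 and 0.674 TPM in CK1 naive skin, at 1.12 to 1.56 TPM in first exposure and at 1.17 to 1.85 TPM in saliva immune skin, with overlap. In EF19-5 it was 1.12 TPM in naive skin, 5.36 and 2.15 TPM after 2 bites, and 4.70 and 1.03 TPM after 3 bites. TLR1, which pairs with TLR2, stood at 0.187 and 0.172 TPM in CK1 naive skin, at 0.215 to 0.300 TPM in first exposure and at 0.318 to 0.751 TPM in saliva immune skin, with no overlap among these 3 groups. All of these TLR1 values lie below 1 TPM. None of its differences among the 3 groups was at an unadjusted p under 0.05 by limma. First exposure skin lay above naive skin without overlap for 21.9% of all tested genes, and saliva immune skin did for 18.5%. Saliva immune skin lay above first exposure skin for 5.41%. In EF19-5 TLR1 was 0.393 TPM in naive skin, 1.68 and 0.587 TPM after 2 bites, and 1.31 and 0.0431 TPM after 3 bites, the last being its lowest value in the series. The pooled log2 difference was 0.52 (SE 0.29) for TLR2 and 0.27 (SE 0.24) for TLR1, with adjusted p of 0.392 and 0.608 by limma. TLR1 has close relatives in TLR6 and TLR10, and the sources used here do not say how reads shared between them were assigned.

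Among the endosomal RNA sensors, TLR8 and TLR7 were highest in replicate 1 of the 2 bites and 3 bites groups, and TLR3 was highest in the 2 libraries of 3 bites skin. TLR8 stood at 0.388 and 0.128 TPM in CK1 naive skin, at 0.318, 0.461 and 0.446 TPM in first exposure and at 0.981, 1.45 and 1.2 TPM in saliva immune skin. The saliva immune libraries thus lay above both other CK1 groups, a log2 difference from first exposure of 0.65 (SE 0.37, unadjusted p = 0.11, adjusted p = 1 by limma). Saliva immune skin lay above naive skin without overlap for 18.5% of all tested genes. It lay above first exposure skin without overlap for 5.41% of them, and for TLR1 and TLR8 among the 9 genes. Both passed the filter through bitten libraries only, and 0 of the 6 genes that did not depend on them were without overlap. In EF19-5, TLR8 was 0.895 TPM in naive skin, 5.99 and 1.77 TPM after 2 bites, and 3.08 and 0.815 TPM after 3 bites. TLR7, a sensor of single-stranded RNA like TLR8, ranged from 0.462 to 1.01 TPM in first exposure and from 0.739 to 1.24 TPM in saliva immune skin, against 0.667 and 0.296 TPM in CK1 naive skin. It was 0.955 TPM in EF19-5 naive skin, 1.86 and 0.971 TPM after 2 bites, and 2.62 and 0.574 TPM after 3 bites. The pooled log2 difference was 0.62 (SE 0.33) for TLR8 and 0.31 (SE 0.23) for TLR7, with adjusted p of 0.374 and 0.532 by limma.

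TLR3, the sensor of double-stranded RNA that signals without MYD88, differed most after 3 bites. In CK1 it stood at 2.94 and 1.48 TPM in naive skin, at 1.81, 2.91 and 2.31 TPM in first exposure and at 2.62, 1.82 and 4.05 TPM in saliva immune skin, all overlapping. In EF19-5 it stood at 1.56 TPM in naive skin, at 2.39 and 1.53 TPM after 2 bites and at 4.18 and 5.38 TPM after 3 bites. Both 3 bites libraries lay above the naive library (41.1% of all genes) and both 2 bites libraries (35.6%). The log2 difference was 1.17 (SE 0.41, unadjusted p = 0.0179, adjusted p = 1 by limma) between 3 bites and naive skin and 0.97 (SE 0.34, unadjusted p = 0.0162, adjusted p = 0.384 by limma) between 3 and 2 bites skin. With the skeletal muscle score as a covariate the latter was 1.14 (adjusted p = 0.0411), in a fit that called 659 of all genes where the fit without it called 0. Basal keratinocyte markers had a median log2 difference of 0.65 between 3 bites and naive skin, with 9 of 9 genes higher without overlap. Between 3 and 2 bites skin the median was 0.55, with 8 of 9 higher and 1 lower without overlap. The part of keratinocytes in the TLR3 differences was not tested.

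MYD88, the adaptor shared by most Toll-like receptors and by the interleukin 1 receptor family, was higher in every EF19-5 library than in any CK1 library. It stood at 39.4 and 21.95 TPM in CK1 naive skin, at 34.5, 50.7 and 40.1 TPM in first exposure and at 32.1, 28.2 and 55.6 TPM in saliva immune skin. In EF19-5 it stood at 57.6 TPM in naive skin, at 103.6 and 65.1 TPM after 2 bites and at 68.5 and 75.8 TPM after 3 bites. The CK1 groups overlapped. All 4 bitten EF19-5 libraries lay above the naive one (28.6% of all genes for 2 bites skin, 41.1% for 3 bites skin). The log2 difference between bitten and naive skin was 0.40 (SE 0.22, adjusted p = 0.387 by limma), 0.40 within CK1 and 0.41 within EF19-5.

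**Figure D2:**
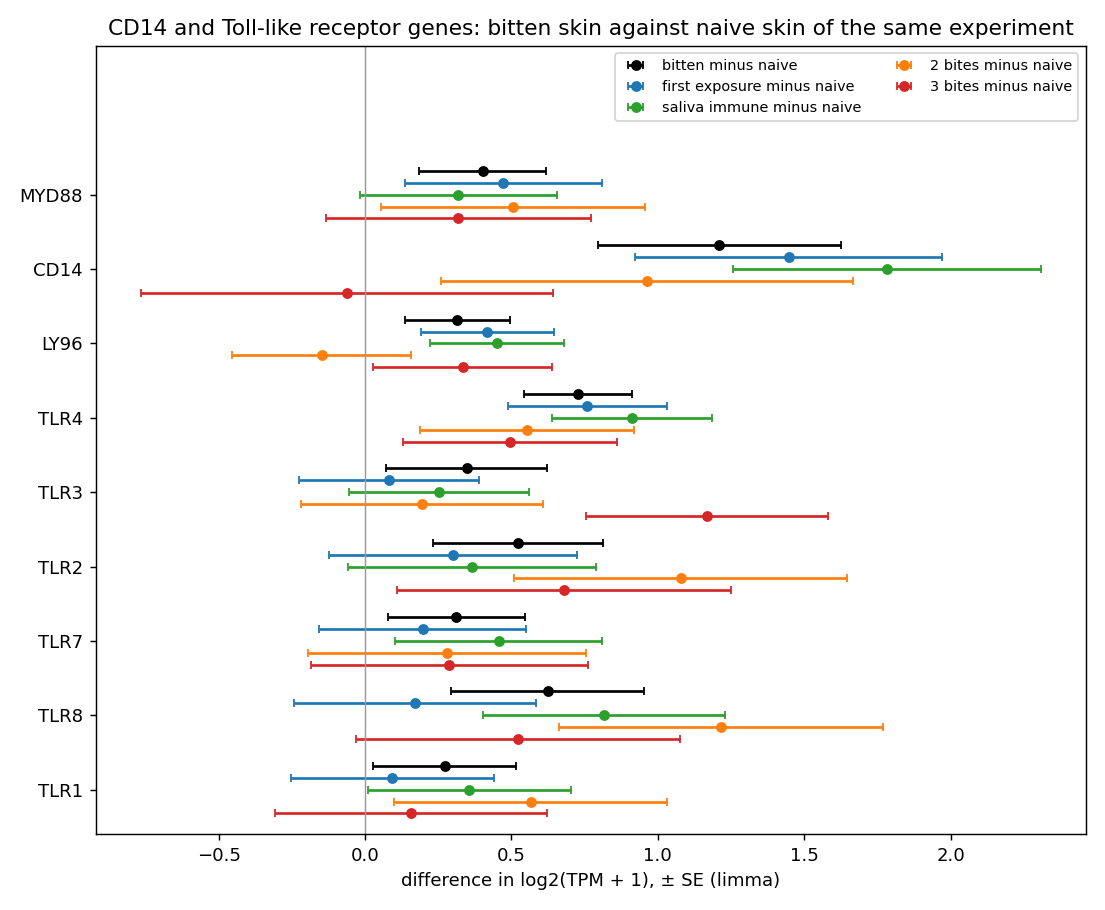
Difference in log2(TPM + 1) between bitten and naive skin for each gene (horizontal axis), pooled and for each bitten group against the naive skin of its own experiment. Points are limma estimates and bars are 1 SE. CD14 has the largest pooled difference (1.21) and TLR4 the one with the smallest SE relative to its size (0.73, SE 0.18), and no difference shown passed at an adjusted p under 0.05.

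Counted together, all 9 genes had a pooled log2 difference above 0, beside 64.6% of all tested genes. So did all 9 in first exposure (64.5% of all genes) and saliva immune skin (68.1%), and 8 of 9 in 2 bites (42.3%) and 3 bites skin (60.6%). Their median was 0.40, and 0.46 over the 6 genes that did not depend on bitten libraries to pass the filter, beside a median of 0.10 over all genes. After adjustment 0 of the 9 passed in bitten against naive skin, where limma called 6 genes in all (0.0401% of those tested). Nor did any of the 9 pass against naive skin in first exposure (0.0334% of all genes called), saliva immune (0.00668%), 2 bites (0.0134%) or 3 bites skin (0.00668%). At an unadjusted p under 0.05, CD14 and TLR4 were higher, 2 of 9 genes, beside 11.2% of all genes. The same 2 genes were at that level in first exposure (9.15% of all genes) and in saliva immune skin (9.55%), each against the same naive libraries. No gene of the 9 was at that level in 2 bites skin (2.7% of all genes higher), and TLR3 alone was in 3 bites skin (1.65%). Groups did not overlap, with the bitten one higher, for 4 of 9 genes in first exposure (21.9% of all genes), 6 of 9 in saliva immune (18.5%), 7 of 9 in 2 bites (28.6%) and 4 of 9 in 3 bites skin (41.1%). Without TLR1, TLR7 and TLR8 these counts were 3, 3, 4 and 4 of 6 genes. The difference of repeat bites from naive skin was also set against that of first exposure. The log2 value was -1.0 (SE 0.83) for CD14 and 0.70 (SE 0.65) for TLR8, and 5 of the 9 genes were above 0 (38.5% of all genes). Without TLR1, TLR7 and TLR8, 2 of 6 were above 0 and the median was -0.15, against 0.09 with them. None of the 9 passed by limma (adjusted p = 1 for each, 0 genes called in all), and 0 of the 9 were at an unadjusted p under 0.05 (0.821% of all genes higher and 2.5% lower). Between saliva immune and first exposure skin 8 of 9 genes were above 0 (54.4% of all genes), with 0 called in all by limma and 0 of the 9 at an unadjusted p under 0.05 (1.8% of all genes higher). Between 3 and 2 bites skin 3 of 9 were above 0 (64.8%), TLR3 was at that level (8.12% higher), and TLR3 and LY96 did not overlap (35.6%).

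Single libraries rather than groups held most of the extremes. The highest value of 6 genes (CD14, MYD88, TLR1, TLR2, TLR4 and TLR8) was in 2 bites replicate 1, that of LY96 and TLR7 in 3 bites replicate 1 and that of TLR3 in 3 bites replicate 2. The lowest value of 8 genes was in naive replicate 2, the library with 17.8% muscle transcripts. Rescaling TPM without the muscle genes gave pooled log2 differences of 1.15 for CD14 and 0.68 for TLR4. The 3 bites replicates were far apart in CD14 (26.7 and 7.23 TPM), TLR2, TLR1, TLR7 and TLR8, with replicate 2 the lower in each, while replicate 2 was the higher in TLR3 and MYD88 and level in LY96.

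The macrophage and monocyte markers moved with CD14 across the same libraries. Of the 20 symbols of that list, 15 were in the table and 13 were tested, LYZ being listed at 0 in all 13 libraries and MPEG1 in 6. Their summed level was 125 and 177 TPM in CK1 naive, 258 to 299 TPM in first exposure and 288 to 629 TPM in saliva immune skin. It was 287 TPM in EF19-5 naive skin, 1130 and 496 TPM after 2 bites, and 681 and 165 TPM after 3 bites, the last in the library where CD14 was also lowest among bitten ones. All 13 tested markers had a pooled log2 difference above 0 (64.6% of all tested genes), with a median of 0.85, and 0 passed after adjustment. With the mean of these markers as a covariate, the pooled log2 difference of CD14 was 0.41 (adjusted p = 0.547 by limma) in place of 1.21, and that of TLR4 was 0.49 (adjusted p = 0.397) in place of 0.73. In the same fit TLR1, TLR7 and TLR8 stood at -0.18, -0.07 and -0.03.

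Set against the geometric mean of the 13 markers, CD14 stood higher in bitten than in naive skin in CK1 and lower in EF19-5. On a log2 scale the ratio was -0.25 and -0.55 in CK1 naive libraries, 0.81, -0.10 and 0.64 in first exposure and 0.18, -0.11 and 0.31 in saliva immune skin. All 6 bitten CK1 libraries lay above both naive ones. In EF19-5 it was 0.14 in the naive library, -0.15 and -0.26 after 2 bites and -0.27 and -0.16 after 3 bites, so that all 4 bitten libraries lay below the naive one. These ratios are a description and were not tested.

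**Figure D3:**
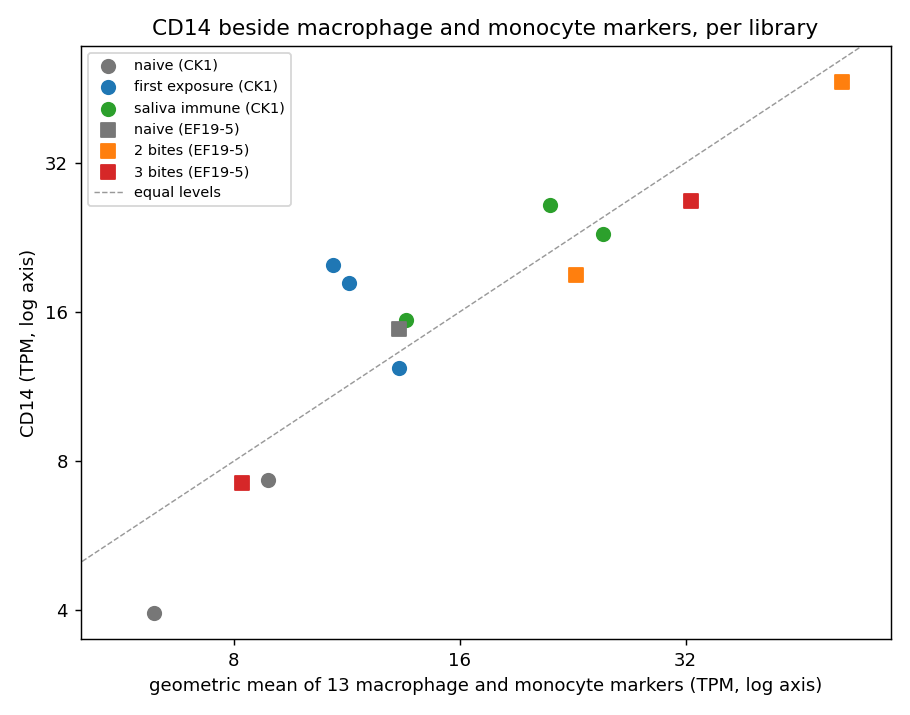
CD14 level (vertical axis, TPM, log axis) against the geometric mean of 13 macrophage and monocyte markers (horizontal axis, TPM, log axis), 1 point per library, circles for CK1 and squares for EF19-5. The dashed line marks equal levels. The library with the highest CD14, 2 bites replicate 1 (46.6 TPM), also has the highest marker level, and 3 bites replicate 2 lies with the CK1 naive libraries at the low end.

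The summed neutrophil markers were higher in all 10 bitten libraries than in naive skin of the same experiment. Their level, of which the calprotectin subunit S100A9 ranged from 80.8 to 2231 TPM, was 83.5 and 122 TPM in CK1 naive, 219 to 2255 TPM in first exposure, 292 to 1157 TPM in saliva immune, 172 TPM in EF19-5 naive, 544 and 559 TPM in 2 bites and 196 and 635 TPM in 3 bites skin. The mean log2(TPM + 1) over the 8 tested markers was highest in 2 bites replicate 1 (3.83) and lowest in naive replicate 2 (1.08), the same libraries as for CD14. MPO, an enzyme of neutrophil granules, was listed at 0 in all 13 libraries and was not among the tested markers. Apart from S100A9, no marker of the list rose above 26.6 TPM (MMP9), so the sums mostly followed S100A9. Which skin cells made S100A9 cannot be told in bulk samples, so the sums do not measure neutrophil content. Of the 8 tested markers, CSF3R was listed at 0 in 3 libraries and ELANE in 7. Median pooled log2 differences of the other marker lists were 0.93 for neutrophil, 0.39 for dendritic and Langerhans cell, 0.66 for T cell and 0.38 for B cell genes. They were 0.78 for mast cell and basophil, 0.63 for endothelial cell and 0.51 for basal keratinocyte genes. They were -0.47 for fibroblast, 0.97 for adipocyte and -0.93 for skeletal muscle genes. The adipocyte median was 1.69 in first exposure, 1.64 in saliva immune, -0.19 in 2 bites and -0.17 in 3 bites skin. The B cell median rests on 3 tested genes, 1 of them with a difference below 0. With the skeletal muscle score as a covariate the pooled log2 difference was 1.13 for CD14 (adjusted p = 0.487 by limma), 0.60 for TLR4 (adjusted p = 0.347) and 0.08 for MYD88 (adjusted p = 0.922). The remaining lists were not used as covariates. The part of any list, macrophage and skeletal muscle included, in the differences was not tested.

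The other genes of the pathway were taken from 6 lists by role, with 169 symbols, of which 130 were in the table and 116 tested. None passed after adjustment in any comparison. In bitten against naive skin, 98 of the 116 had a difference above 0, beside 64.6% of all tested genes. The filter favoured a difference in that direction for genes low in naive skin. Counts and medians of these lists were not repeated without such genes. At an unadjusted p under 0.05, 32 were higher and 2 lower (11.2% and 4.58% of all genes). The 3 genes with the smallest p of each list are given next, with limma adjusted p between 0.113 and 0.279 for these 18 genes. Their means and SDs pool the libraries of both experiments. Within each experiment, bitten libraries lay above naive ones without overlap for 3.09% of all tested genes. Macrophage markers count in part among the pathway genes, since CD86, CTSS, MRC1 and MSR1 are on both kinds of list.

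Among further receptors and partners, 3 of 15 tested genes were higher at an unadjusted p under 0.05 and 0 lower, with a median log2 difference of 0.30. CD36, a scavenger receptor that works with TLR2, stood at 21.9 ± 6.89 TPM in naive (SD, n = 3) and 50.8 ± 20.6 TPM in bitten skin (n = 10). UNC93B1, the chaperone that carries RNA-sensing Toll-like receptors to endosomes, stood at 17.5 ± 5.81 and 28.9 ± 5.96 TPM. LGMN, an endosomal protease, stood at 47.8 ± 18.9 and 76.3 ± 26.0 TPM. For none of the 3 were the bitten libraries above the naive ones in both experiments without overlap.

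Adaptors and kinases differed least, with a median log2 difference of 0.18 and 3 of 22 higher at an unadjusted p under 0.05. MAP3K8, a kinase that links these receptors to MAP kinases, stood at 6.81 ± 3.21 TPM in naive and 11.6 ± 3.29 TPM in bitten skin, without overlap within each experiment. IRAK4, the kinase that binds MYD88, stood at 6.72 ± 2.36 and 9.91 ± 2.52 TPM, and IKBKE, a kinase of the interferon branch, at 7.25 ± 2.51 and 13.2 ± 4.61 TPM, both with overlap. Of 12 transcription factors (median 0.38), 3 were higher and 1 lower. IRF7, which drives type I interferon genes, stood at 2.75 ± 0.886 and 6.57 ± 2.58 TPM, and the NF-kB subunit RELB at 21.2 ± 5.59 and 31.5 ± 5.07 TPM. Both overlapped within experiments, with RELB in 3 bites replicate 1 (21.3 TPM) below the EF19-5 naive library (25.6 TPM). JUN, a subunit of AP-1, was the lower one, at 311 ± 135 in naive and 189 ± 59.1 TPM in bitten skin. It overlapped too, with 298 TPM in 3 bites replicate 2 against 197 TPM in the EF19-5 naive library.

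Of 22 inhibitors of the pathway tested, 19 had a difference above 0, beside 64.6% of all tested genes. At an unadjusted p under 0.05, 7 were higher and 1 lower (median 0.29). ZC3H12A, a ribonuclease that degrades messages of inflammatory cytokines, stood at 8.92 ± 6.70 TPM in naive and 31.2 ± 18.6 TPM in bitten skin, a log2 difference of 1.67 (SE 0.52, adjusted p = 0.175 by limma), without overlap within each experiment. NFKBIE, which holds NF-kB in the cytoplasm, stood at 4.61 ± 0.965 and 8.17 ± 2.19 TPM, with overlap. ATF3, a stress-induced repressor, was lower, at 139 ± 108 in naive and 35.8 ± 18.6 TPM in bitten skin, a log2 difference of -1.65 (SE 0.46, adjusted p = 0.145 by limma). Its naive values were 252, 130 and 35.8 TPM, so that the EF19-5 naive library lay within the bitten range.

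Target genes had the largest median difference of the 6 lists, 0.64, with 8 of 23 higher and 0 lower at an unadjusted p under 0.05. RSAD2, an antiviral enzyme, stood at 0.670 ± 0.317 TPM in naive and 1.96 ± 0.605 TPM in bitten skin, without overlap. Its naive values were 1.03, 0.549 and 0.432 TPM, so it needed bitten libraries to pass the filter. ISG15, a ubiquitin-like interferon-induced protein, stood at 6.76 ± 2.05 and 15.6 ± 9.04 TPM, and BIRC3, an inhibitor of cell death induced by NF-kB, at 12.03 ± 4.74 and 20.1 ± 5.38 TPM, both with overlap. Other pattern receptors and their partners had a median of 0.55, with 8 of 22 higher and 0 lower. Il18, the cytokine released by inflammasomes, stood at 10.5 ± 6.70 and 25.0 ± 9.66 TPM, with overlap. The fungal glucan receptor CLEC7A stood at 1.1 ± 1.05 and 5.23 ± 3.97 TPM, without overlap within each experiment. Its naive libraries ranged from 0.255 to 2.28 TPM, and CLEC7A too needed bitten libraries to pass the filter. The macrophage receptor TREM2 was listed at 1.40 and 0 TPM in CK1 naive skin and 2.33 TPM in EF19-5 naive skin, below the bitten libraries of the same experiment (1.91 to 10.4 TPM in all).

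**Figure D4:**
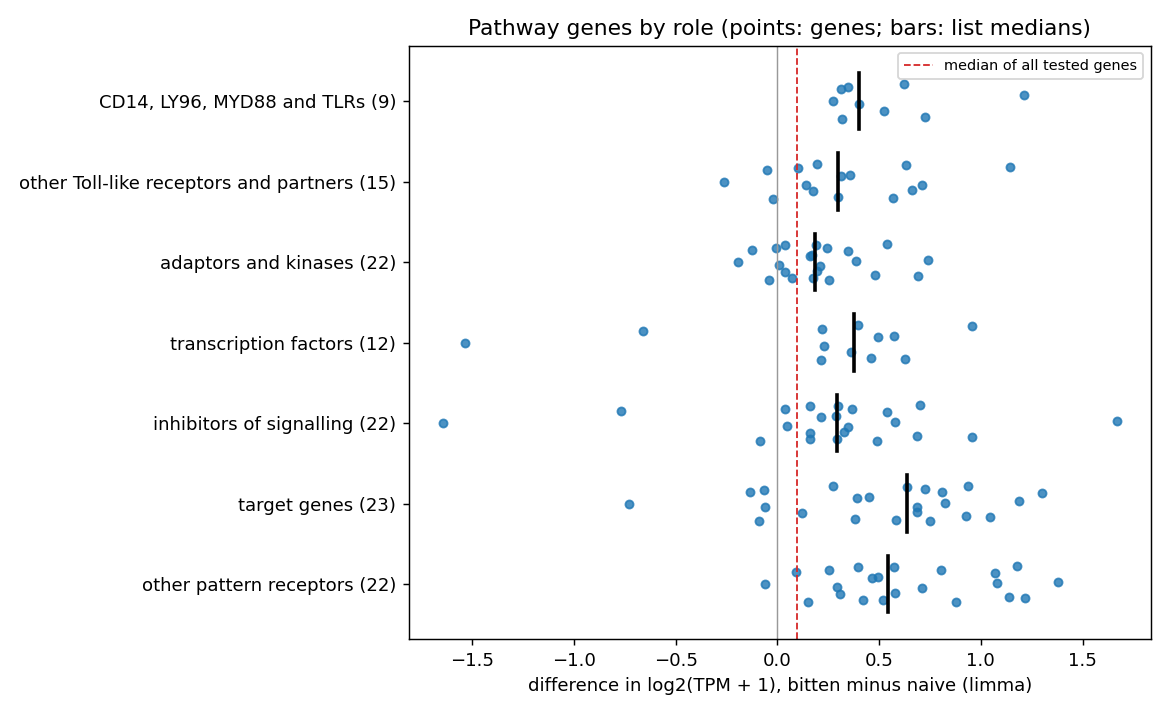
Difference in log2(TPM + 1) between bitten and naive skin (horizontal axis) for every tested gene of the pathway, by role, with the number of genes in brackets. Points are genes, black bars are list medians and the dashed line is the median of all tested genes (0.10). Every list median lies to the right of that line, from 0.18 for adaptors and kinases to 0.64 for target genes.

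The genes most like CD14 were sought by Pearson's r of log2(TPM + 1) over the 13 libraries after each experiment was centred on its mean. The 8 named genes with the highest r were LGMN (0.978), Vim (0.978), FUCA2 (0.968), PRKAR1B (0.955), CD68 (0.955), HSD17B11 (0.953), C3 (0.949) and DIXDC1 (0.945). CD68 is a lysosomal protein of macrophages, Vim encodes the filament protein vimentin, and C3 is the central complement component. Of the other 8 genes described here, TLR4 was most like CD14 (r = 0.884, place 130 of 14978 genes), before TLR8 (0.811), TLR1 (0.804), TLR2 (0.777) and TLR7 (0.725). MYD88 (0.493), LY96 (0.430) and TLR3 (-0.01) were less like it. These values describe 13 libraries that share groups and tissue composition, and no test was made on them.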

How the data were processed

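Expression was measured by RNA sequencing of guinea pig skin in 13 libraries. Per the labels' protocols, RNA was isolated with a Qiagen kit and libraries followed Illumina protocols. The authors deposited TPM values for all libraries in a single table. The submitters' processing notes name Trimmomatic, StringTie and DESeq without versions or roles. The aligner and genome build are not given in the sources used. TPM keeps no record of depth.

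Genes reaching 1 TPM in 2 or more libraries (14979 of 26855) were tested on log2(TPM + 1), which understates differences of low genes, with limma 3.58.1 in R 4.3.3: empirical Bayes with intensity trend, two-sided, Benjamini-Hochberg over all tested genes, called at an adjusted p under 0.05. Bitten against naive used a bitten term and the experiment over all libraries. The other 7 comparisons used 1 model of 5 groups and the experiment. The genes described, the lists and the tests were chosen with earlier results of these data known. Besides all genes described, the text names the 3 pathway genes per list ranked first by p in the pooled comparison, and the 8 genes most correlated with CD14. The fits were tested on simulated data. Alternatives were another pseudocount (0.1), no filter, other scalings, covariates, array weights, single experiments and leaving out each library.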

Additional observations from a re-analysis of the deposited data

How the results depend on the processing

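None of the 9 genes was called in 7 of the 8 comparisons under any of the up to 24 alternatives. In 3 against 2 bites, 1 gene (TLR3) was called with the muscle score as a covariate. For CD14 in bitten against naive skin the log2 difference lay between 0.41 and 1.62 and the adjusted p between 0.0757 and 1, and for TLR4 between 0.49 and 0.90 with an adjusted p between 0.0594 and 1. With the macrophage score as a covariate the sign turned for TLR1 (-0.18), TLR7 (-0.068) and TLR8 (-0.029) in bitten against naive, TLR8 in saliva immune against naive (-0.0786), CD14 (-0.28) and TLR4 (-0.0747) in saliva immune against first exposure, CD14 in 2 bites against naive (-0.26) and TLR4 in 3 against 2 bites (0.29). The last was 0.0306 with the muscle score. Without the experiment term, CD14 stood at 0.80 in 3 bites against naive, and at 0.30 (TLR4 at 0.45) in repeat bites against first exposure. Leaving out 1 library gave -0.94 to 0.81 for CD14 in 3 bites against naive, and for TLR4 -0.0166 to 0.24 in saliva immune against first exposure, -0.34 to 0.22 in 3 against 2 bites and -0.51 to 0.0322 in repeat bites against first exposure. The cause of these turns was not tested. Of 942 refits of the 44 differences not printed with a test, 74 changed sign and 0 passed.

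Calls over all genes ranged from 1 to 92 in bitten (6 as reported), 1 to 25 in first exposure (5), 1 to 7 in saliva immune (1), 1 to 254 in 2 bites (2) and 1 to 30 in 3 bites against naive skin (1), 0 to 659 between 3 and 2 bites (0), 0 to 1 between saliva immune and first exposure (0) and 0 to 24 in repeat bites set against first exposure (0). Scaling by median of ratios moved the median of all genes in bitten against naive skin from 0.10 to -0.01. Array weights were run for the pooled comparison only, since they did not converge in the model of 5 groups. Without naive replicate 3, 2 bites, 3 bites and repeat bites could not be fitted against naive skin. TPM keeps no depth, so what depth limits at the low levels of TLR1, TLR7 and TLR8 is unknown.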

Other observations

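The balance of LY96 and TLR4, which work as a pair, was looked at after their values had been seen. The ratio of LY96 to TLR4 in TPM was 1.25 and 1.46 in the CK1 naive libraries and 1.49 in the EF19-5 naive library. It was 0.817, 1.12 and 1.01 in first exposure, 0.871, 1.01 and 0.784 in saliva immune, 0.846 and 0.833 in 2 bites and 1.04 and 1.60 in 3 bites skin. Thus 9 of the 10 bitten libraries lay below all 3 naive ones, and 3 bites replicate 2 lay above them. The ratio divides by TLR4, which itself was higher in all 10 bitten libraries than in the 3 naive ones. It is therefore not separate from that result, and ratios of other genes were not counted. The ratio of CD14 to TLR4 ranged from 1.35 in that library to 5.34 in 2 bites replicate 1.

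TLR6 and TLR10, close relatives of TLR1, were also read after the other values. TLR6 ranged from 0.0520 TPM in first exposure replicate 1 to 1.22 TPM in 3 bites replicate 2, the library in which TLR1 was lowest, and TLR10 ranged from 0.131 to 1.22 TPM. In 3 bites skin TLR6 stood at 1.16 and 1.22 TPM, against 0.664 and 0.203 TPM after 2 bites and 0.346 TPM in the naive library of that experiment. LBP, the serum protein that brings lipopolysaccharide to CD14, ranged from 1.68 to 5.06 TPM.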
